A study of Homo sapiens with 8 samples.

Results

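The genes of glycolysis, glucose uptake and lactate transport were followed in T98 and U87, established human glioblastoma cell lines, after transfection of an siRNA that targets LKB1, the protein kinase whose gene is STK11. Members were taken by gene symbol from a fixed list of 32 genes, counting PKM and PKM2 as 1 gene. The deposited table holds 31 of the 32 among its 18787 gene symbols, and PFKL was not analysed here. All 31 were among the 14282 genes tested, which are those whose value reached 10 in at least 2 libraries. The 4 groups were T98 with LKB1 siRNA, T98 with control siRNA, U87 with LKB1 siRNA and U87 with control siRNA, with 2 libraries each. All cells, controls included, grew in DMEM with fetal bovine serum and penicillin-streptomycin, were transfected with Lipofectamine RNAiMAX, and gave total RNA 72 h later. The labels call the cells duplicated without saying whether transfections were separate, so the libraries of a group may be technical duplicates and every p-value measures only the spread between these libraries. Each group had 1 library on sequencing lane 2 and the other on lane 4 (T98) or lane 5 (U87), and libraries are named here by line, siRNA and lane.

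Glycolysis splits glucose into pyruvate in the cytosol, and lactate dehydrogenase turns pyruvate into lactate and restores the NAD+ that glycolysis consumes. Glucose enters through SLC2A (GLUT) carriers and lactate leaves through SLC16A (MCT) carriers. Inside mitochondria, pyruvate dehydrogenase oxidises pyruvate unless its PDK kinases switch it off. Many glioblastomas make lactate even where oxygen is present, and the hypoxia-inducible factor HIF-1 and MYC are known activators of most of these genes. LKB1 activates AMPK, a sensor of low energy that acts on both glucose uptake and glycolytic enzymes.

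The values analysed were the signal deposited by the authors, with libraries scaled to a common size, and the reads recovered from it ranged from 25234334 to 38031736 per library. STK11 had values of 339.9 (lane 2) and 587.6 (lane 4) with LKB1 siRNA in T98, against 1999 and 2041 with control siRNA, and 360.7 (lane 2) and 384.6 (lane 5) with LKB1 siRNA in U87, against 2445 and 2041 with control siRNA. The groups did not overlap in either line. The glial markers SOX2 and S100B were below 10 in every library of both lines and GFAP in every T98 library, whereas VIM and CD44 made the summed glial list 71460 to 127300 in T98 and 190900 to 349400 in U87. Of 4 leukocyte markers, PTPRC and AIF1 were below 10 in both lines, but CD68 brought the list's sum to 595.3 to 1283 in T98 and 12050 to 22970 in U87. The endothelial and epithelial lists summed to at most 94.59 in any library. The neuron list moved with the siRNA, at 452.7 (lane 2) and 906.9 (lane 4) with LKB1 siRNA in T98, against 90.88 and 297.4 with control siRNA, and at 2516 (lane 2) and 2379 (lane 5) in U87, against 902.6 and 709.2. Of its 3 markers SNAP25 made up most of that sum, with 439.1 and 897.6 with LKB1 siRNA in T98, against 85.49 and 287.9, while RBFOX3 was below 10 in every library and SYT1 in every T98 library. The part of these markers in the members' changes was not tested. A bulk measurement cannot tell fewer cells of a kind from less RNA per cell.

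Promoter sequences are shown first because the HIF core motif lies in many of them. Whether the motif has a part in any change of these genes was not tested. RefSeq promoters (GRCh38.p14, 250 bases before to 50 after 1 start per gene) matched 28 of the 31 members, all but SLC16A1, PFKFB2 and SLC2A3. The HIF core was searched as ACGTG or GCGTG, and the E-box read by MYC and the ChREBP-MLX pair as CACGTG, which contains ACGTG, on both strands. At least 1 core match lay in 18 of the 28 (64.3%), against 48.4% of 35116 RefSeq promoters, and the E-box lay in 5 (17.9%) against 7.26%. ACGTG alone lay in 11 (39.3%) against 21.4%, and GCGTG alone in 14 (50%) against 36.5%. The 4 promoters below belong to genes that the results turn on, with every match on either strand in capitals. They are those of LDHA (chr11:18394313-18394612, plus strand), PGK1 (chrX:78103998-78104297, plus strand), PFKFB4 (chr3:48556754-48557053, minus strand) and TPI1 (chr12:6867281-6867580, plus strand).
LDHA: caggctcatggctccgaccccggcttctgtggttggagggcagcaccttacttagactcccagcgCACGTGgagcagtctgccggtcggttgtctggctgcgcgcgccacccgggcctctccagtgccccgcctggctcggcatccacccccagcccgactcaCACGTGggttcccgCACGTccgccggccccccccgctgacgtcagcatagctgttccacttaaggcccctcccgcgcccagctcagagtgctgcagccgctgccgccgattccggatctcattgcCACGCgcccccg
PGK1: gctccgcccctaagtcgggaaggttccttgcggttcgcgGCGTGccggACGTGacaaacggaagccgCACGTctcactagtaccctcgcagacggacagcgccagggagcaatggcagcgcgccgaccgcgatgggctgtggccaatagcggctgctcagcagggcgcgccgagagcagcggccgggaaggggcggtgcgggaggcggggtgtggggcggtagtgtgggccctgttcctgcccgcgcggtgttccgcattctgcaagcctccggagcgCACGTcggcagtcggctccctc
PFKFB4: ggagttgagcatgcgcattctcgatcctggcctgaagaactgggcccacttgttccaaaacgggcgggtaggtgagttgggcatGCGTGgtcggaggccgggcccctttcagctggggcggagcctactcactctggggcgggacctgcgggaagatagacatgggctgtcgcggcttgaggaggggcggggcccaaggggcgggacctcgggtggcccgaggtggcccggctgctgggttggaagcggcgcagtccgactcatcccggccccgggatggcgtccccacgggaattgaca
TPI1: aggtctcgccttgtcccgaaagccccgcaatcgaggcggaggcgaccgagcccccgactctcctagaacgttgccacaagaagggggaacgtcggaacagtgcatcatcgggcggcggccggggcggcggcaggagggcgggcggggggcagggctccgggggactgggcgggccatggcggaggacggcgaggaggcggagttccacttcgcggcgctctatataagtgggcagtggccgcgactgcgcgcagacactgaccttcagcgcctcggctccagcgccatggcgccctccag
LDHA holds core matches in 4 separate stretches, 2 of them E-boxes, each of which reads as ACGTG on both strands. PGK1 also holds 4 separate matches, and PFKFB4 holds 1. Promoters not shown were as rich in members that passed in no siRNA comparison. PDHB holds matches in 5 separate stretches, and ALDOC and PDHA1 in 4 each. TPI1 holds none in its window, and neither do SLC16A3, HK1, PGM1, PFKM, PFKP, PGAM1, PDK1, PDK2 and PDK4. The start used need not be that of the counted transcript, and for PGAM1 it appears to lie inside the gene. A gene without a match may thus hold one elsewhere. The match-rich promoters of LDHA and PGK1 are GC-rich, at 70% and 70.7% G or C. Promoters without a match ranged from 36.3% in PDK1 to 71.7% in PFKP, with TPI1 at 71.0%. The shares above were not matched for base content, and the RefSeq promoters set beside the members were not limited to genes tested here. The part of either in the shares was not tested. A match is a string of letters and was not tied to binding here.

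In T98, 27 (lane 2) and 25 (lane 4) of 31 members were higher with LKB1 siRNA than with control siRNA of the same lane. Of all 14282 genes tested, 7688 and 7095 were. In U87, 17 members (lane 2) and 24 (lane 5) were higher, against 6974 and 7011 of all genes tested. Most changes were modest, and HK1 was lower in all 4 pairs. Without a lane term, limma-trend called no member in T98, in U87, for the mean of both effects or for their difference. The same test called 0.028% of all genes tested in T98, 0.056% in U87, 1.86% for the mean effect and 0% for the difference. Members with an unadjusted p under 0.05 numbered 5 in T98, 1 in U87, 9 for the mean effect and 1 for the difference, against 1502, 1268, 2263 and 367 of all genes tested. The smallest adjusted p of a member was 0.097, for the mean effect on SLC16A1. The log2 difference between the 2 libraries of a group had an SD of 0.86 to 0.89 over all genes tested, and that between siRNA pairs of a lane an SD of 0.54 to 0.79. The 2 lanes of a group also hold its duplicates, so lane cannot be told apart from a separate transfection or library preparation, and lane stands for both here.

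With a lane term for each line (called the lane-term fit, with 2 residual degrees of freedom), limma-trend called 7 members higher in T98, where 8.48% of all genes tested were called higher, and 1 lower, where 7.33% were. The 7 were SLC16A1, GPI, TPI1, PFKFB3, PFKFB4, PGAM1 and LDHA, and the 1 was HK1. In T98, 18 members (58.1%) had an unadjusted p under 0.05 in that fit, against 34.5% of all genes. In U87 the lane-term fit called 4 higher (SLC16A1, PGM1, PFKFB4 and ENO2), with 5.29% of all genes called higher, and 0 lower, with 5.91% of all genes called lower and 11 members (35.5%) at an unadjusted p under 0.05 in either direction, against 27.6% of all genes. For the mean of both lines it called 12 higher and 2 lower, against 13.2% of all genes called higher and 13.2% called lower. It called 0 members for the difference between the lines, where 0.476% of all genes were called and 4 members (12.9%) had an unadjusted p under 0.05, against 14.8% of all genes. These calls rest on few degrees of freedom. Without any 1 U87 library, the lane-term fit called 0 members in T98, in U87 and for the mean, although the T98 fold changes themselves do not use U87 libraries. Without either lane 2 library of T98 it called only ALDOC in T98, and with no filter on low values it called 0 in all these comparisons.

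Counts that use no model were read beside the same counts over all genes. The LKB1 siRNA library was higher in all 4 pairs of a line and lane for 16 of 31 members (51.6%), against 21.7% of all genes tested. It was lower in all 4 for HK1 and PFKFB2 (6.45%), against 21.3% of all genes. In T98 both LKB1 siRNA libraries lay above both controls for 14 members (45.2%; 20.5% of all genes) and below them for 2 (6.45%; 20.5% of all genes). In U87 they lay above for 9 (29%; 17.6% of all genes) and below for 2, SLC2A3 and HK1 (6.45%; 20.2% of all genes). The median log2 fold change of the 31 members was 0.33 in T98, with 28 above 0, and 0.10 in U87, with 19 above 0. All 14282 genes tested had medians of 0.02 and 0.00, with 7435 above 0 in T98 and 7114 in U87. Taken within a lane, the member median was 0.39 for T98 lane 2, 0.24 for T98 lane 4, 0.02 for U87 lane 2 and 0.10 for U87 lane 5. The members' summed values made up 2.73% (lane 2) and 2.70% (lane 4) of all values with LKB1 siRNA in T98, against 2.20% and 2.36% with control siRNA. In U87 the share was 2.88% (lane 2) and 3.19% (lane 5) with LKB1 siRNA, against 2.84% and 3.04% with control siRNA.

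**Figure D1:**
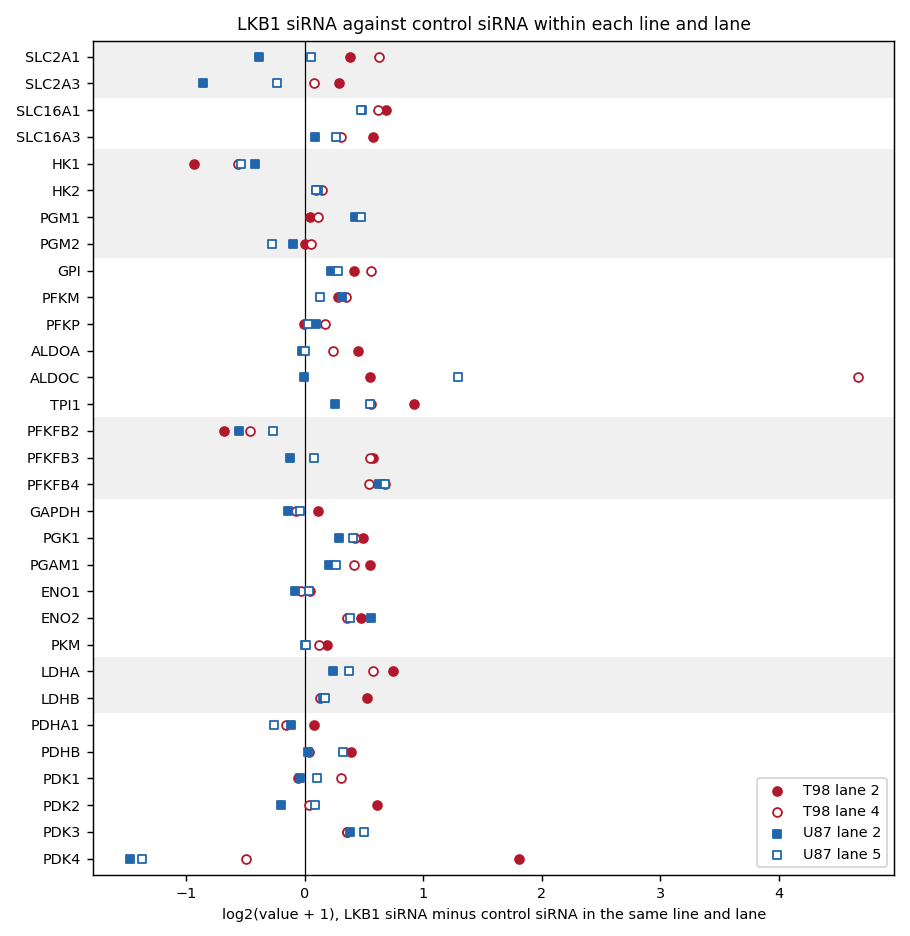
Difference in log2(value + 1) between the LKB1 siRNA and the control siRNA library of the same line and lane, for the 31 members in pathway order (rows). Red circles are T98 and blue squares U87, filled for lane 2 and open for lane 4 or 5, and grey bands separate roles. SLC16A1, TPI1, PFKFB4, PGK1 and LDHA have all 4 points right of 0, HK1 and PFKFB2 have all 4 left of it, and ALDOC in T98 lane 4 stands far from the others at 4.67.

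The glucose carriers passed in no comparison of LKB1 siRNA with control siRNA. SLC2A1 (GLUT1), the widespread carrier of basal uptake, had values of 28026 (lane 2) and 18813 (lane 4) with LKB1 siRNA in T98, against 21496 and 12226 with control siRNA. Each lane pair was higher with LKB1 siRNA, by 0.38 and 0.62 on the log2 scale, yet the groups overlapped because lane 2 was the higher lane. In U87, SLC2A1 was at 11685 (lane 2) and 17086 (lane 5) with LKB1 siRNA, against 15302 and 16464 with control siRNA. SLC2A3 (GLUT3), a high-affinity carrier typical of neurons, was at 4514 (lane 2) and 7510 (lane 5) with LKB1 siRNA in U87, against 8200 and 8859 with control siRNA. Those groups did not overlap and differed by −0.55 on the log2 scale (SE 0.16, adjusted p = 0.0749 in the lane-term fit). In T98, SLC2A3 was at 1632 and 2001 with LKB1 siRNA, against 1336 and 1899. The T98 minus U87 difference of effects was 0.73 for SLC2A3 (adjusted p = 0.227) and 0.67 for SLC2A1 (adjusted p = 0.215) in the lane-term fit, so neither passed. SLC2A3 reads are uncertain because its near copy SLC2A14 can share them, and SLC2A14 was also lower in U87, at 1201 and 1762 with LKB1 siRNA against 1780 and 1907.

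SLC16A1 (MCT1), a lactate and pyruvate carrier, rose in both lines in the lane-term fit. In T98 it had values of 8188 (lane 2) and 6718 (lane 4) with LKB1 siRNA, against 5088 and 4386 with control siRNA. In U87 it had 8993 (lane 2) and 10360 (lane 5) with LKB1 siRNA, against 6454 and 7448. No library of 1 group reached the other group in either line. In the lane-term fit SLC16A1 (chromosome 1, 113454470 to 113498975, minus strand, hg19) had a log2 fold change in T98 of 0.65 (SE 0.11, adjusted p = 0.0135), and for U87 it was 0.48 (SE 0.11, adjusted p = 0.0347). Without a lane term its adjusted p was 0.335 in T98 and 0.522 in U87. SLC16A3 (MCT4), the lactate exporter of highly glycolytic cells, was at 9580 (lane 2) and 9692 (lane 4) with LKB1 siRNA in T98, against 6439 and 7854. In U87 it was at 9680 (lane 2) and 17631 (lane 5) with LKB1 siRNA, against 9099 and 14739, so that lane separated the U87 libraries more than siRNA did. SLC16A3 passed for the mean effect alone (0.31, SE 0.089, adjusted p = 0.0404 in the lane-term fit).

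LDHA, the lactate dehydrogenase subunit that dominates where pyruvate is reduced to lactate, rose in T98. Its values were 105979 (lane 2) and 84547 (lane 4) with LKB1 siRNA in T98, against 63262 and 56668 with control siRNA. In U87 they were 113517 (lane 2) and 125372 (lane 5) with LKB1 siRNA, against 96142 and 96667. Every LKB1 siRNA library exceeded every control library of its line. The log2 fold change of LDHA (chromosome 11, 18415936 to 18429765, plus strand, hg19) was 0.66 in T98 (SE 0.14, adjusted p = 0.0235), 0.31 for U87 cells (SE 0.14, adjusted p = 0.206) and 0.48 for the mean (SE 0.099, adjusted p = 0.0122) in the lane-term fit. Its partner LDHB, the subunit typical of tissues that burn lactate, was at 37738 and 27704 with LKB1 siRNA in T98, against 26212 and 25387, and at 19482 and 17125 in U87, against 17515 and 15264. LDHB passed in no siRNA comparison. The T98 minus U87 difference in the LDHA effect was 0.35 (SE 0.20, adjusted p = 0.446 in the lane-term fit), so a larger change in T98 was not shown.

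**Figure D2:**
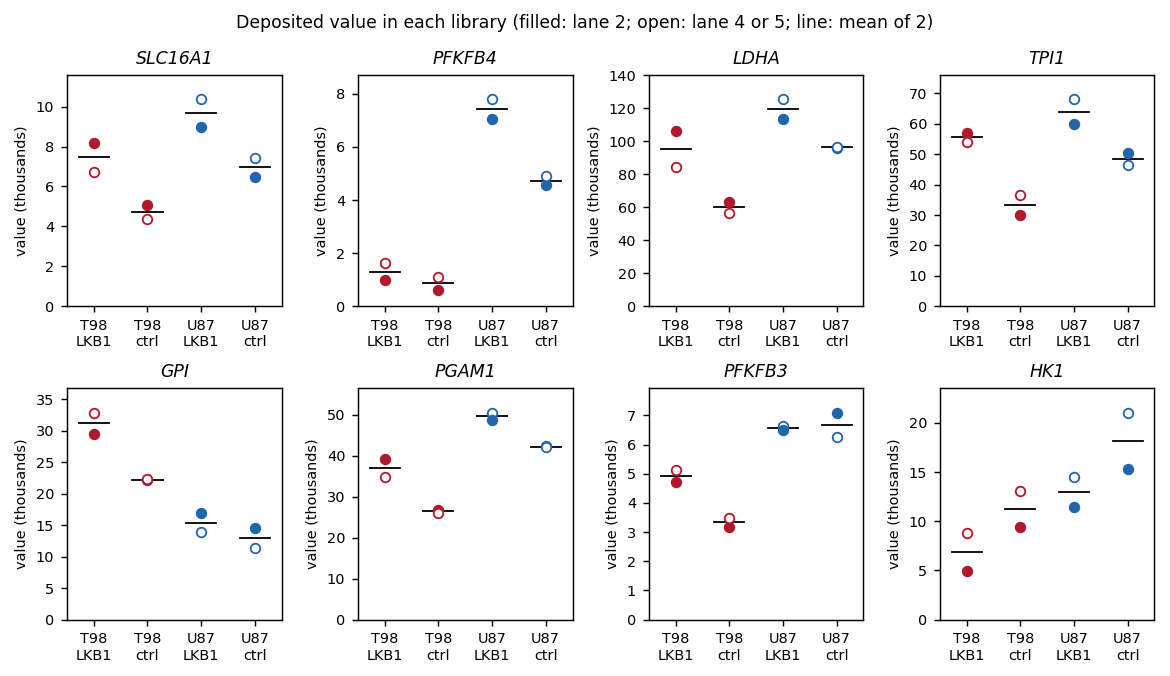
Deposited value (linear axes from 0) of 8 members in each library, with LKB1 siRNA left of control siRNA in T98 (red) and U87 (blue). Filled points are lane 2, open points lane 4 or 5, and the line is the mean of the 2 libraries. The LKB1 siRNA points of SLC16A1, LDHA, TPI1 and PGAM1 lie above the control points in both lines, and those of HK1 lie below in both.

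Hexose entry held HK1, the member called lower in T98 and for the mean effect in the lane-term fit. HK1, the hexokinase of most tissues and of brain, traps glucose as glucose 6-phosphate. Its values were 4927 (lane 2) and 8830 (lane 4) with LKB1 siRNA in T98, against 9413 and 13037 with control siRNA. In U87 they were 11461 (lane 2) and 14449 (lane 5) with LKB1 siRNA, against 15327 and 21030. The groups did not overlap in either line, although lane 2 was the lower lane throughout. HK1 (chromosome 10, 71029756 to 71161637, plus strand, hg19) changed by −0.75 in T98 (SE 0.13, adjusted p = 0.0145) and for the mean effect by −0.61 (SE 0.094, adjusted p = 0.00416) in the lane-term fit. In U87 the change of −0.48 missed the threshold (SE 0.13, adjusted p = 0.0586). Without a lane term HK1 had adjusted p = 0.484 in T98. HK2, the inducible hexokinase common in tumours, was at 5050 and 5853 with LKB1 siRNA in T98, against 4739 and 5293. In U87 it was at 10608 (lane 2) and 17915 (lane 5) with LKB1 siRNA, against 9811 and 16780. HK2 was thus slightly higher in each of the 4 lane pairs, by 0.09 to 0.15 (log2), and passed nowhere under siRNA.

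The phosphoglucomutases PGM1 and PGM2 link glucose 6-phosphate to glycogen and nucleotide sugars, with PGM2 acting mainly on pentose phosphates. PGM1 rose in U87, with 9513 (lane 2) and 6061 (lane 5) in LKB1 siRNA libraries, against 7117 and 4369. The U87 groups overlapped because of the lane difference, and the change within lanes was 0.42 and 0.47. The lane-term fit gave 0.45 (SE 0.11, adjusted p = 0.0441), and 0.08 in T98 (adjusted p = 0.648), where LKB1 siRNA libraries had 5650 and 6832, against 5472 and 6319. PGM2 was at 1796 and 1419 with LKB1 siRNA in T98, against 1791 and 1367, and at 512.1 and 748.3 in U87, against 550.1 and 905.1.

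Upper glycolysis runs from glucose 6-phosphate to the triose phosphates, and the lane-term fit called 2 of its 6 measured genes, GPI and TPI1, higher in T98. GPI, the isomerase that makes fructose 6-phosphate, had 29480 (lane 2) and 32833 (lane 4) with LKB1 siRNA in T98, against 22108 and 22295. The T98 groups stood clear of each other, 0.49 apart on the log2 scale (SE 0.12, adjusted p = 0.0347). In U87, GPI was at 16890 and 13852 with LKB1 siRNA, against 14476 and 11425, higher in each lane but overlapping between groups. TPI1, which interconverts the triose phosphates, had 56957 (lane 2) and 54036 (lane 4) with LKB1 siRNA in T98, against 30093 and 36608. In U87, TPI1 had 59938 (lane 2) and 67995 (lane 5) with LKB1 siRNA, against 50285 and 46563. Neither line showed overlap. TPI1 (chromosome 12, 6976584 to 6980110, plus strand, hg19) changed by 0.74 in T98 (SE 0.15, adjusted p = 0.0215) and 0.40 in U87 (SE 0.15, adjusted p = 0.138) in the lane-term fit.

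The phosphofructokinase subunits PFKM and PFKP, which carry the committed step, did not pass under siRNA. PFKM was at 3859 and 4429 with LKB1 siRNA in T98, against 3184 and 3477, and at 5729 and 4771 in U87, against 4615 and 4371, so its groups did not overlap in either line. Its mean effect of 0.27 had adjusted p = 0.0501 in the lane-term fit. PFKP was at 13019 and 10982 with LKB1 siRNA in T98, against 13112 and 9755, and at 26341 and 20041 in U87, against 24737 and 19629. ALDOA, the main aldolase, was at 68603 and 54474 with LKB1 siRNA in T98, against 50274 and 46209, and at 93815 and 89105 in U87, against 95544 and 88853.

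ALDOC, the brain aldolase, rested on 1 library. With LKB1 siRNA in T98 it had 630.2 (lane 2) and 526.0 (lane 4), against 429.1 and 19.73 with control siRNA. The lane 4 control library alone was low, and the lane differences were 0.55 (lane 2) and 4.67 (lane 4). Its log2 fold change of 2.61 in T98 (SE 0.80, adjusted p = 0.0635 in the lane-term fit) was 0.55 in that fit when either lane 4 library was left out. In U87, ALDOC was at 1691 and 3713 with LKB1 siRNA, against 1697 and 1512, again with 1 library apart, that of LKB1 siRNA on lane 5.

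The PFKFB enzymes make and remove the allosteric activator of phosphofructokinase, and PFKFB3 and PFKFB4 are the forms induced by hypoxia. PFKFB4 rose in both lines. In T98 it had 993.0 (lane 2) and 1618 (lane 4) with LKB1 siRNA, against 619.5 and 1113, so the groups overlapped while each lane pair was higher. In U87 it had 7030 (lane 2) and 7787 (lane 5) with LKB1 siRNA, against 4568 and 4888, with no overlap. The log2 fold change of PFKFB4 (chromosome 3, 48555117 to 48594227, minus strand, hg19) was 0.61 in T98 (SE 0.12, adjusted p = 0.0180) and 0.65 in U87 (SE 0.12, adjusted p = 0.0145) in the lane-term fit. Without a lane term the adjusted p was 0.569 in T98 and 0.691 in U87.

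PFKFB3 rose in T98, with 4722 (lane 2) and 5128 (lane 4) in LKB1 siRNA libraries, against 3176 and 3498. That change was 0.56 on the log2 scale (SE 0.12, adjusted p = 0.0226 in the lane-term fit). In U87, PFKFB3 was at 6499 and 6626 with LKB1 siRNA, against 7094 and 6267, or −0.02 on the log2 scale (SE 0.12). The T98 minus U87 difference for PFKFB3 was 0.59 (SE 0.17, adjusted p = 0.180 in the lane-term fit; SE 0.24, adjusted p = 1 without a lane term), so the lines were not shown to differ. PFKFB2, the heart form, was at 368.1 (lane 2) and 347.2 (lane 4) with LKB1 siRNA in T98, against 590.5 and 480.3. In U87 it was at 242.2 (lane 2) and 618.9 (lane 5) with LKB1 siRNA, against 357.0 and 744.7. PFKFB2 was lower in each lane pair and passed for the mean effect (−0.49, SE 0.12, adjusted p = 0.0193 in the lane-term fit).

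Lower glycolysis, from glyceraldehyde 3-phosphate to pyruvate, split into genes that moved and 3 abundant genes that stayed close to their controls. PGAM1, the mutase that moves the phosphate of phosphoglycerate, had 39260 (lane 2) and 34806 (lane 4) with LKB1 siRNA in T98, against 26808 and 26172. In U87 it had 48813 (lane 2) and 50562 (lane 5) with LKB1 siRNA, against 42423 and 42059. Both lines showed no overlap, with 0.48 in T98 (SE 0.13, adjusted p = 0.0416) and 0.23 in U87 (SE 0.13, adjusted p = 0.276) in the lane-term fit. PGAM4, a near-identical copy that can share its reads, was also higher in T98, at 18650 and 17113 with LKB1 siRNA against 13049 and 12998, so reads of the 2 genes cannot be told apart with certainty.

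PGK1, which makes the earliest ATP of the pathway, had 45259 (lane 2) and 53213 (lane 4) with LKB1 siRNA in T98, against 32215 and 39679. In U87 it had 64328 (lane 2) and 72478 (lane 5) with LKB1 siRNA, against 52817 and 54667. No overlap was seen in either line, and the mean effect of 0.40 passed (SE 0.091, adjusted p = 0.0173), whereas T98 alone narrowly missed (adjusted p = 0.0509) in the lane-term fit. ENO2, the neuronal enolase, had 2212 (lane 2) and 2491 (lane 4) with LKB1 siRNA in T98, against 1597 and 1947. In U87 it had 17531 (lane 2) and 23235 (lane 5) with LKB1 siRNA, against 11917 and 17850. ENO2 rose in U87 by 0.47 (SE 0.12, adjusted p = 0.0437) and had 0.41 in T98 (SE 0.12, adjusted p = 0.0520) in the lane-term fit.

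The 3 most abundant members per kilobase in control T98 cells, GAPDH, PKM and ENO1, had log2 fold changes between −0.09 and 0.15 in either line. GAPDH, which reduces NAD+, was at 119093 and 128559 with LKB1 siRNA in T98, against 110262 and 135572, and at 117479 and 148478 in U87, against 129959 and 152859. ENO1, the widespread enolase, was at 113320 and 103519 with LKB1 siRNA in T98, against 109737 and 106164, and at 114843 and 118239 in U87, against 121548 and 115701. PKM, the pyruvate kinase, was at 185109 and 162165 with LKB1 siRNA in T98, against 163053 and 149722, and at 169481 and 156677 in U87, against 169258 and 155607. The standard errors of 0.14 to 0.15 in the lane-term fit leave room for changes of that size. Several of these enzymes, LDHA, LDHB and PGK1 included, have processed pseudogenes whose reads the counting may have split.

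Of the 6 genes of pyruvate dehydrogenase and its kinases, PDK3 passed for the mean effect. The PDK kinases phosphorylate and switch off pyruvate dehydrogenase. PDK3 had 1150 (lane 2) and 1440 (lane 4) with LKB1 siRNA in T98, against 899.7 and 1123, and 1160 (lane 2) and 1578 (lane 5) in U87, against 891.1 and 1117. The groups did not overlap in either line, with a mean effect of 0.40 (SE 0.090, adjusted p = 0.0170 in the lane-term fit). PDK1, the HIF-inducible form, was at 1774 and 2010 with LKB1 siRNA in T98, against 1842 and 1626, and at 3275 and 2933 in U87, against 3370 and 2732. The siRNA groups overlapped for PDK2, at 774.0 and 1010 with LKB1 siRNA in T98, against 508.6 and 987.5, and at 1052 and 850.5 in U87, against 1209 and 800.9.

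PDK4, the form induced by fasting, was barely read. It had 10.75 (lane 2) and 105.5 (lane 4) with LKB1 siRNA in T98, against 2.359 and 149.4, and 10.02 (lane 2) and 37.67 (lane 5) in U87, against 29.72 and 99.43. Lane 2 was the low lane in all groups, and T98 lanes went opposite ways. The pyruvate dehydrogenase subunits did not pass: PDHA1 was at 4731 and 3876 with LKB1 siRNA in T98, against 4478 and 4323, and at 3022 and 2119 in U87, against 3280 and 2535. PDHB was at 2831 and 2133 with LKB1 siRNA in T98, against 2158 and 2085, and at 2150 and 2507 in U87, against 2116 and 2010.

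Shares between isozymes were taken within each library from values per kilobase of transcript, so that library size cancels. HK2 made up 38.3% (lane 2) and 28.7% (lane 4) of HK1 plus HK2 with LKB1 siRNA in T98, against 23.4% and 19.8% with control siRNA. In U87 it made up 36.0% (lane 2) and 42.9% (lane 5) with LKB1 siRNA, against 27.96% and 32.61%. The HK2 share was higher in every LKB1 siRNA library than in every control library of its line. HK2 itself changed little, by 0.12 in T98 and 0.10 in U87 (log2), while HK1 changed by −0.75 and −0.48. LDHA made up 63.8% and 65.7% of LDHA plus LDHB with LKB1 siRNA in T98, against 60.2% and 58.4%, and 78.5% and 82.1% in U87, against 77.5% and 79.9%. The LDHA share thus overlapped in U87 but not in T98. PFKFB4 made up 59.2% and 61.2% of PFKFB4 plus PFKFB3 with LKB1 siRNA in U87, against 46.3% and 51.1%. In T98 the PFKFB4 share overlapped, at 22.0% and 29.7% with LKB1 siRNA, against 20.7% and 29.9%. SLC16A3 made up a smaller share of SLC16A3 plus SLC16A1 in each lane pair, at 68.7% and 73.0% with LKB1 siRNA in T98, against 70.4% and 77.1%, and 66.9% and 76.2% in U87, against 72.6% and 78.8%. With 2 libraries per group these shares are descriptions and no test was run on them.

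**Figure D3:**
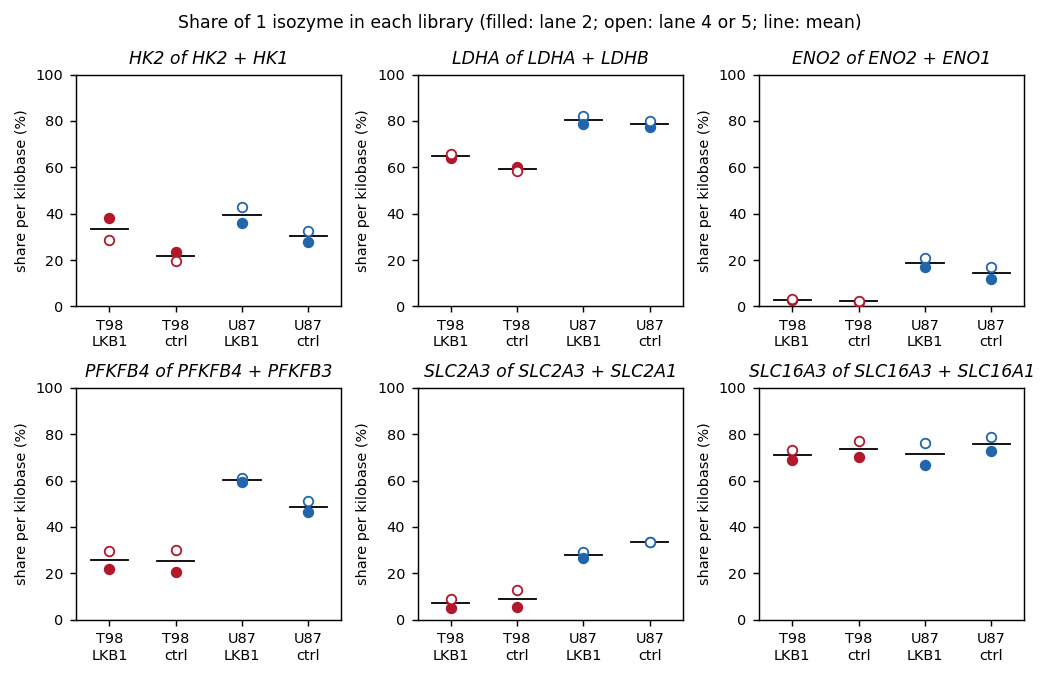
Share of the named isozyme in its pair (percent of values per kilobase, axes from 0 to 100) in each library, with LKB1 siRNA left of control siRNA in T98 (red) and U87 (blue). Filled points are lane 2, open points lane 4 or 5, and lines are means of 2 libraries. The HK2 share is higher with LKB1 siRNA in both lines, and the ENO2, SLC2A3 and PFKFB4 shares are far lower in T98 than in U87.

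Levels per kilobase of transcript spanned the pathway widely and kept a similar order in the 4 groups. GAPDH stood highest, at 76440 ± 4130 per kilobase with LKB1 siRNA in T98 and 75870 ± 11000 with control siRNA (SD, n = 2 each), followed by PKM at 54350 ± 5080 and 48950 ± 2950. In U87, GAPDH was at 82090 ± 13500 with LKB1 siRNA and 87290 ± 10000 with control siRNA. LDHA and ENO1 came next, and their order changed with the siRNA in T98. LDHA was at 37180 ± 5920 with LKB1 siRNA in T98, above ENO1 at 33210 ± 2120, and at 23410 ± 1820 with control siRNA, below ENO1 at 33060 ± 774. The LKB1 siRNA values of that pair lay within their spread. At the low end were PFKFB2, PDK3 and PDK4, with PFKFB2 at 39.1 ± 1.61 with LKB1 siRNA in T98 and 58.5 ± 8.50 with control siRNA.

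**Figure D4:**
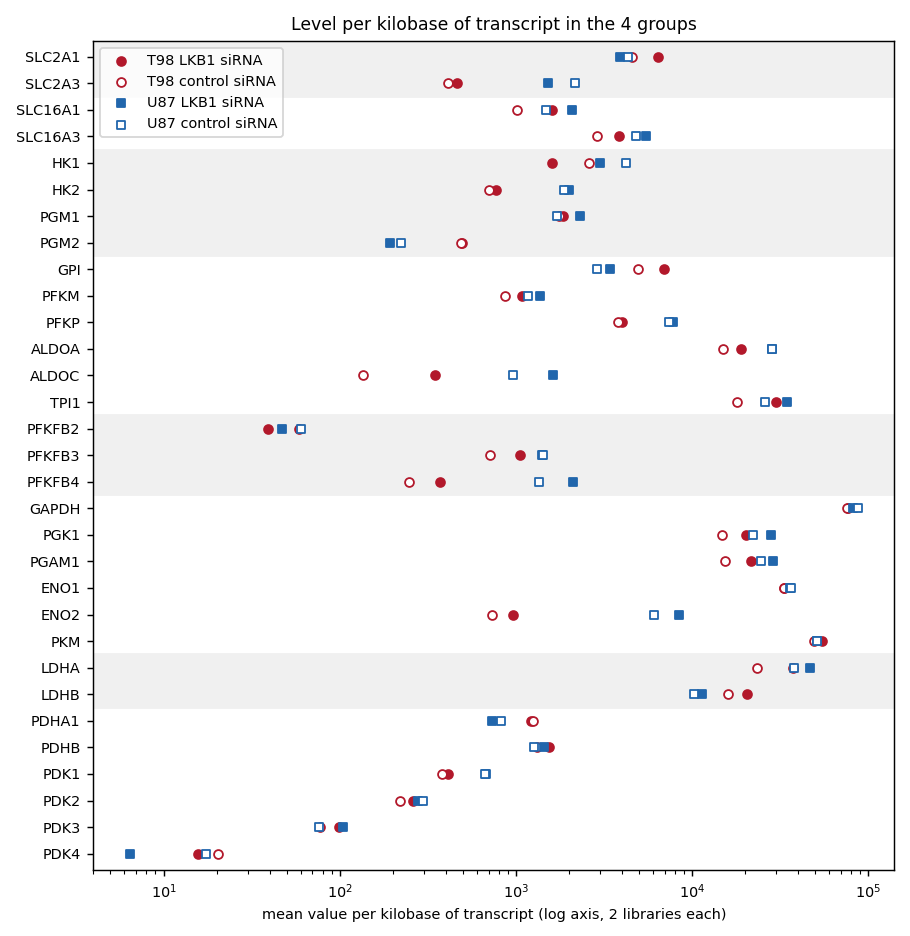
Mean value per kilobase of transcript (log axis, 2 libraries per group) of the 31 members in pathway order, with T98 as red circles and U87 as blue squares, filled for LKB1 siRNA and open for control siRNA. GAPDH, PKM, LDHA and ENO1 lie at the right, PDK4 at the far left, and the lines part most for ENO2, SLC2A3, PFKFB4 and ALDOC.

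T98 carried less of many members than U87 under control siRNA. Without a lane term, limma-trend called 10 of 31 members lower in T98 (32.3%, against 19.5% of all genes tested) and 2 higher, PGM2 and GPI (6.45%, against 18.3% of all genes). In the lane-term fit, which compares the lines as fitted at lane 2, 18 were lower (58.1%, against 32.6% of all genes) and 6 higher (19.4%, against 30.7% of all genes). The median over members was −0.55 (log2), with 9 of 31 above 0. All genes tested had a median of −0.01, with 7101 of 14282 above 0. The member median was −0.60 between lane 2 libraries and −0.46 between lane 4 of T98 and lane 5 of U87. Its direction thus did not depend on which lanes were set against each other. Line and lane are partly tied, since lane 4 held only T98 and lane 5 only U87. The count of 12 called members was 6 or 7 without any 1 of the 4 control libraries, and SLC2A3, PFKFB3, PFKFB4 and ENO2 passed in each of those fits. Without the lane 2 control of T98, HK2, PGM2, GPI, ALDOA and PGAM1 lost their call, and without its lane 4 control GPI, PFKP, ALDOA, PGAM1 and PDK1 did. Without the lane 2 control of U87, PGM2, PFKP, ALDOA, ALDOC, PGAM1 and PDK1 lost it, and without its lane 5 control HK2, GPI, ALDOA, ALDOC and PGAM1 did. PGAM1 also lost it without either LKB1 siRNA library of U87. The 24 calls of the lane-term fit became 4 without the lane 2 control of U87, 11 without any other U87 library and 15 without the lane 2 control of T98.

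ENO2 and PFKFB4 differed most among those 4. ENO2 had 1597 and 1947 in T98 controls, against 11917 and 17850 in U87 controls, or −3.05 on the log2 scale (SE 0.25, adjusted p = 0.00017, limma-trend without a lane term). PFKFB4 had 619.5 and 1113 in T98 controls, against 4568 and 4888, or −2.51 on the log2 scale (SE 0.33, adjusted p = 0.00114). SLC2A3 had 1336 and 1899, against 8200 and 8859, or −2.42 on the log2 scale (SE 0.29, adjusted p = 0.000765). For all 3 the T98 and U87 controls were far apart. SLC2A3 made up 5.48% and 12.7% of SLC2A3 plus SLC2A1 per kilobase in T98 controls, against 33.3% and 33.4% in U87 controls, while SLC2A1 itself differed by 0.03 (SE 0.34, adjusted p = 0.949). In the lane-term fit SLC2A1 was called higher in T98 (0.54, SE 0.18, adjusted p = 0.0305), and its lane comparisons went opposite ways, at 0.49 between the lane 2 controls and −0.43 between lane 4 of T98 and lane 5 of U87. ENO2 made up 1.91% and 2.40% of ENO2 plus ENO1 per kilobase in T98 controls, against 11.6% and 17.1% in U87 controls.

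The other members called lower in T98 were HK2 (−1.36, SE 0.33, adjusted p = 0.0152), PFKFB3 (−1.0003, SE 0.17, adjusted p = 0.00335), PFKP, ALDOA, ALDOC, PGAM1 and PDK1, with log2 fold changes of −0.67 to −0.96 apart from ALDOC. ALDOC had −4.09 (SE 1.18, adjusted p = 0.0299), of which the low T98 control on lane 4 made a large part, since the lane 2 libraries differed by −1.98. GPI was higher in T98 controls, with 22108 and 22295 against 14476 and 11425 in U87 controls (0.79, SE 0.21, adjusted p = 0.0225). PGM2 had 1791 and 1367 in T98 controls, against 550.1 and 905.1 (1.15, SE 0.32, adjusted p = 0.0262). LDHB and LDHA lay in opposite directions, at 0.66 (adjusted p = 0.0509) and −0.69 (adjusted p = 0.0680), and both passed in the lane-term fit (adjusted p = 0.00875 and 0.0284). PGM1 had 0.08 without a lane term and −0.38 with it (SE 0.14, adjusted p = 0.0401), as its 2 lane comparisons went opposite ways.

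**Figure D5:**
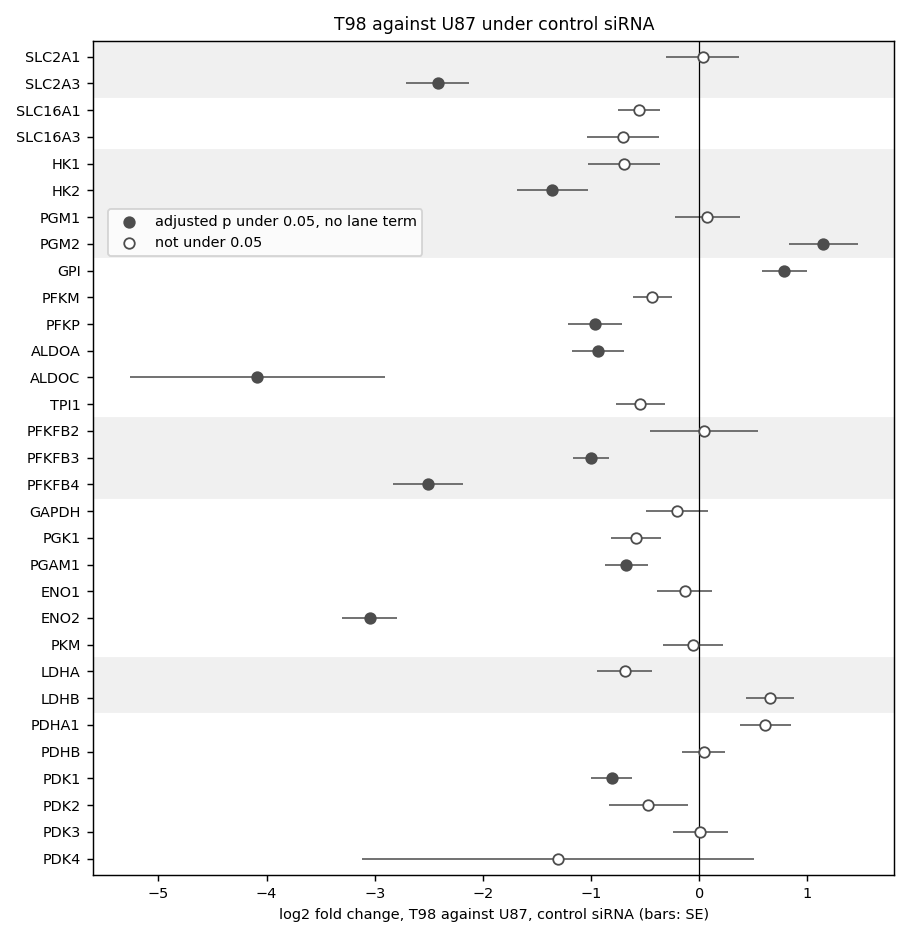
Log2 fold change of T98 against U87 under control siRNA for the 31 members in pathway order, from limma-trend without a lane term, with bars of 1 SE (2 libraries per line). Filled points have adjusted p under 0.05. ENO2, PFKFB4, SLC2A3 and ALDOC lie furthest to the left, and PGM2 and GPI are the filled points on the right.

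Other genes of the pathway, of which 54 of 72 listed were tested, had a median log2 fold change of 0.16 in T98 and −0.05 in U87. None passed without a lane term under siRNA, and for the mean effect in the lane-term fit 8 were higher (14.8%, near the 13.2% of all genes) and 10 lower (18.5%, against 13.2% of all genes). SLC16A6, a ketone body and taurine carrier, rose in both lines, by 0.96 in T98 (SE 0.19, adjusted p = 0.0211) and 2.10 in U87 (SE 0.19, adjusted p = 0.00196) in the lane-term fit. Its U87 values were 258.6 (lane 2) and 6870 (lane 5) with LKB1 siRNA, against 51.97 and 1831, so lane separated them more than siRNA did. In T98, SLC2A6 was higher in the lane-term fit (0.61, SE 0.14, adjusted p = 0.0274). Lower in T98 were SLC16A7 (MCT2, −0.93, SE 0.14, adjusted p = 0.01) and the pentose phosphate enzyme PGD (−0.69, SE 0.12, adjusted p = 0.0131).

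In the same lane-term fit, PDHX, the protein that anchors a subunit of the pyruvate dehydrogenase complex, was at 1598 (lane 2) and 2236 (lane 4) with LKB1 siRNA in T98, against 3910 and 3306, and at 776.0 (lane 2) and 1192 (lane 5) in U87, against 1358 and 1885. The groups did not overlap in either line, and the mean effect was −0.83 (SE 0.13, adjusted p = 0.00416). MPC1, a subunit of the mitochondrial pyruvate carrier, fell in U87, with 198.6 (lane 2) and 153.2 (lane 5) against 370.5 and 291.1 (−0.91, SE 0.15, adjusted p = 0.0108). SLC2A8, an intracellular hexose carrier, fell in U87 by 1.19 on the log2 scale (SE 0.18, adjusted p = 0.00785). Between the lines under control siRNA, without a lane term, 13 of the 54 were higher in T98 (24.1%, against 18.3% of all genes) and 11 lower (20.4%, near the 19.5% of all genes). SLC2A10 (8.50, SE 0.59, adjusted p = 9.2e-05) and the transaldolase TALDO1 (2.55, SE 0.18, adjusted p = 9.2e-05) led those higher. SLC2A14 (−2.24, SE 0.28, adjusted p = 0.000938) and the galactose mutarotase GALM (−7.60, SE 0.99, adjusted p = 0.00115) led those lower. SLC2A10 was at or below 5.256 in U87 controls and GALM had 1 and 5 reads in T98 controls, so both folds depend on the pseudocount.

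Of 22 regulators of glycolysis, FOXO3 passed for the mean effect without a lane term (0.90, SE 0.15, adjusted p = 0.0377), but leaving out each library in turn gave it adjusted p values between 0.0713 and 0.153, so the call was lost every time. FOXO3, a transcription factor that AKT keeps out of the nucleus, had 1912 (lane 2) and 1789 (lane 4) with LKB1 siRNA in T98, against 1111 and 1073, and 2036 (lane 2) and 2399 (lane 5) in U87, against 911.2 and 1265. TXNIP, which restrains glucose uptake and answers to the glucose sensors MLXIP and MLXIPL, rose in T98, with 9185 and 10084 against 3574 and 6831 (0.96, SE 0.19, adjusted p = 0.0195 in the lane-term fit). ARNT, the partner of HIF-1 alpha, fell in T98 (−0.56, SE 0.13, adjusted p = 0.0280). MLXIPL was also called lower there (adjusted p = 0.0172), but on 0 and 2 reads with LKB1 siRNA against 2 and 15 with control siRNA, so the size of its change depends on the pseudocount. HIF1A rose in U87, with 12478 (lane 2) and 16254 (lane 5) in LKB1 siRNA libraries, against 7918 and 9771 (0.70, SE 0.18, adjusted p = 0.0478). In T98 the HIF1A lanes went opposite ways, at 4986 and 11732 with LKB1 siRNA against 6215 and 8611. PRKAA1, an AMPK catalytic subunit, was lower for the mean effect (−0.50, SE 0.12, adjusted p = 0.0206). Under control siRNA without a lane term, FOXO1 (1.99, SE 0.64, adjusted p = 0.0430) was higher in T98, and ARRDC4 (−2.66, SE 0.44, adjusted p = 0.00335) and MLXIPL (−3.87, SE 0.87, adjusted p = 0.0114, on the T98 control reads just given) were lower.

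Of 16 HIF targets outside glycolysis, none passed under siRNA without a lane term. For the mean effect in the lane-term fit 7 were higher and 0 lower, where 13.2% of all genes were called lower. Under control siRNA without a lane term 11 were lower in T98 than in U87 (68.8%, against 19.5% of all genes). In that comparison 1, ADM, was higher (6.25%, against 18.3% of all genes). CA9, a carbonic anhydrase, had 133.9 (lane 2) and 536.5 (lane 4) with LKB1 siRNA in T98, against 27.98 and 272.8, and 10567 (lane 2) and 16488 (lane 5) in U87, against 5329 and 7865. VEGFA was at 1772 and 1512 in T98 controls, against 26188 and 28036 in U87 controls (−4.05, SE 0.17, adjusted p = 3.83e-05 without a lane term). The 7 are 43.8% of the list, beside the 13.2% of all genes called higher. The list's median was 0.26 in T98, 0.14 in U87 and −1.53 between the lines.

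A pair of heptamers that are frequent in the 3′ UTRs of genes changed in these data was looked up in the members. As background, an siRNA can lower other transcripts whose 3′ UTR pairs with its seed. GCAGTAC lay in the 3′ UTR of 11.8% of genes called higher in T98 and 20.2% of those called higher in U87 in the lane-term fit, against 4.25% of 14118 genes with a 3′ UTR. It lay in 0 of the 31 members, SLC16A1, PFKFB4, LDHA and TPI1 among them. GAAGGAA lay in 32.8% of genes called lower in T98 and 28.7% of those called lower in U87, against 17.9% of all. Among members it lay in 4 (12.9%), namely PFKFB2, SLC2A3, PDK4 and PGK1. HK1, the member called lower in T98, carries neither heptamer in its 749 bases of 3′ UTR. The median 3′ UTR was 749 bases in the members, against 935 in all genes tested. In T98 it was 982 bases in genes called higher and 1599 in those called lower. In U87 it was 1492 in genes called higher and 1052 in those called lower. Whether such pairing has a part in any member's change was not tested.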

How the data were processed

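Total RNA of 8 samples was sequenced from libraries made with the TruSeq RNA kit V2, per the labels' protocols, which records no strand. The submitters' processing notes name TopHat2 2.0.8b, edgeR and the builds hg19 and GRCh37, with no counter given there. In 18815 rows the deposited table holds the authors' normalised signal per gene and library, which behaves as reads moved to a common library size with a common dispersion of 0.06803. Inverting that step returned whole reads, within 0.05 read, for 99.52% to 100% of values, and these give the depth per library. Where a symbol had several rows, the row with the highest mean was kept, and coordinates count from 1.

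Tests were two-sided limma-trend fits (limma 3.58.1, R 4.3.3) on log2(value + 1) of the deposited signal, with all 8 libraries, a mean per group and 4 residual degrees of freedom. P-values were adjusted by Benjamini-Hochberg over all 14282 genes tested, with a threshold of 0.05, and fold changes on this scale understate those of low genes. The column names give lanes. Lane differences correlated at 0.72 between the T98 groups and 0.81 between the U87 groups, and at 0.12 to 0.18 across lines, so the libraries of a line pair by lane, and a fit with a lane term stands beside the one without. The procedure was also run on simulated reads with a lane effect shared by both siRNA groups, which cannot vouch for single calls in these data. The members, the lists and the added fits were chosen with earlier results of these data known. Every member is named, and from each further list up to 2 genes called higher and 2 called lower per comparison, by smallest adjusted p, with others chosen after their values were seen. A few genes that this rule would name are not reported here. Promoters came from RefSeq (GRCh38.p14), matched by symbol. GENCODE gave the 3′ UTRs, matched by RefSeq transcript or, failing that, by symbol, and the longest was taken.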

Additional observations from a re-analysis of the deposited data

How the results depend on the processing

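The lane term (a replicate block by lane, not by replicate number) moved the number of called members to 8 in T98, 4 in U87, 14 for the mean effect and 24 between the lines, from 0, 0, 0 and 12, and it turned PGM1 between the lines to −0.38. Without a lane term, scaling the recovered reads by median ratios, a pseudocount of 10 and leaving out the filter kept these counts within 1.5 times, and leaving out 1 library gave 6 to 13 between the lines. The fits below were chosen after seeing the data. With a lane term, a pseudocount of 10 gave 14 members in T98, and no filter gave 0 in T98, 0 in U87 and 0 for the mean. Leaving out 1 library gave 0 to 10 in T98, 0 to 7 in U87, 0 to 13 for the mean, 0 to 1 for the difference (PDK4) and 4 to 26 between the lines. The cause of these shifts was not tested, apart from the fewer degrees of freedom when a library is left out, when a lone sample is assumed to vary like the others. Of the single-gene values, 1835 without and 1350 with a lane term kept direction and side of the threshold, and 27 and 239 lost their call. Fits of count models (edgeR, DESeq2) and TMM scaling were not run, neither on the deposited signal, which is not read counts, nor on the recovered reads. The recovered reads served only for depth, for genes with few reads and for the median-ratio scaling. At 25234334 to 38031736 reads per library, PDK4 was the member with the fewest reads. The widest standard error was that of PDK4 without a lane term and that of ALDOC with it.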
